A study of Mus musculus with 29 samples.

Results

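Iron handling genes were followed through 29 mouse lung arrays: Lcn2, Steap4, Tfrc, Trf, Slc40a1, Slc11a2, Slc11a1, Fth1, Hamp and Cp. The members were taken by name, from the annotation of the 45101 probe sets of the array, which listed 29 probe sets for these 10 genes. The list was chosen by values of the same arrays: Lcn2 was already known to stand far above the normal lung in the tumours, and Steap4 to be lower in TI-KM than in TI-K primaries. Those values are therefore given as a description with no test. Of the 29 probe sets, 25 passed a filter on dim signals (above the 40th percentile of their own array in at least 6 arrays). Array controls built on Tfrc made up 3 of the 29 and were left out of the gene values. A member's value is that of its probe set with the highest mean, and 9 of the 10 members were tested in this way among 14602 genes. The tenth, Trf, had only a probe set annotated jointly to Trf and to Srprb, a subunit of the signal recognition particle receptor, so its signal cannot be assigned to transferrin and is reported as that of the joint probe set.

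The study asked how Mad2 overexpression bears on the relapse of lung tumours after the inducing transgenes are switched off. The groups used here are 6 TI-KM recurrences, 14 TI-KM primaries, 8 TI-K primaries and 1 normal lung, all on a mixed 129/Bl6 background and all carrying CCSP-rtTA. In CCSP-rtTA mice the club cell secretory protein promoter drives the doxycycline-dependent activator in airway and some alveolar epithelial cells, so transgenes under a TRE promoter are switched on in those cells by doxycycline. TI-KM animals also carried TRE-Mad2 and a second TRE transgene, with recurrences and primaries of the same genotype. TI-K animals carried that second transgene without TRE-Mad2, and the normal lung carried CCSP-rtTA alone. The labels call the tumours lung adenocarcinoma/adenoma and give no age, duration of doxycycline or time of withdrawal. They do not say which arrays come from different animals, so the p-values measure the spread between these samples, and TI-KM primaries 1 and 2 share the title number 76.

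Iron reaches most cells bound to transferrin (Trf) and is taken in through the transferrin receptor (Tfrc). After reduction by a STEAP metalloreductase it leaves the endosome through the divalent metal transporter Slc11a2, is stored in ferritin (Fth1), and leaves the cell through ferroportin (Slc40a1) with the help of ceruloplasmin (Cp), a ferroxidase. Hepcidin (Hamp), made mainly by the liver, removes ferroportin from the cell surface. Lcn2 and Slc11a1 belong to host defence: Lcn2 withholds iron from bacteria by binding their siderophores, and Slc11a1 pumps metal out of the phagosomes of macrophages. Inflammation is known to raise Lcn2, Hamp and Cp.

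The 250 bases before the start of Lcn2 and of Steap4 are shown first, because these 2 genes led to the choice of the members and they went opposite ways against the normal lung. The sequences are from RefSeq (GRCm38.p6), which held such windows for 7 of the 10 members; Trf, Slc40a1 and Slc11a2 had no entry in it. Capitals mark every match, on either strand, to 3 motifs: TTGCNNAA, a C/EBP-like motif, TTCNNNGAA, a STAT-like motif, and the NF-kB consensus. Lcn2 lies on the minus strand at chr2:32387740-32387989 and Steap4 on the plus strand at chr5:7960222-7960471, both printed 5′ to 3′ towards the gene.
Lcn2: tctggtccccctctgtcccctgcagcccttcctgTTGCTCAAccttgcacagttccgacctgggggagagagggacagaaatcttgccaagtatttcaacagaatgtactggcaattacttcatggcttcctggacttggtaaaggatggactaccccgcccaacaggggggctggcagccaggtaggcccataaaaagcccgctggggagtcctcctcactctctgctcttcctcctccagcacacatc
Steap4: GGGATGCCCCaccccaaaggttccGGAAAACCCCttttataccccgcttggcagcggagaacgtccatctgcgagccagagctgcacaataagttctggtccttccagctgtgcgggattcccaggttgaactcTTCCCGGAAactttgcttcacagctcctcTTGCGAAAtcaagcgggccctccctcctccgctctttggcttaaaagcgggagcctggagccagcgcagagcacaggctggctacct

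In the Lcn2 window the only match was TTGCTCAA, for the C/EBP-like motif, 216 bases before the start. The Steap4 window held 1 match to that motif, TTGCGAAA at 87 bases, 1 to the STAT-like motif, TTCCCGGAA at 116 bases, and 2 to the NF-kB consensus, GGGATGCCCC and GGAAAACCCC. No matches of different motifs overlapped. Among all 32851 windows of the same length, 9.56% held the C/EBP-like motif, 7.02% the STAT-like motif and 7.25% the NF-kB consensus. In the windows of the other members with an entry, the C/EBP-like motif occurred 2 times at 1 of the starts of Fth1 and 1 time at 1 of the starts of Cp, and the STAT-like motif 1 time before Hamp. These are matches of letters and not measured binding sites.

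The signals are in the units of the deposited table, which scales each array to a trimmed mean of 500. Log2 values were taken after adding 20 to each signal, and differences and fold changes refer to that scale. Of the markers of the labelled tissue, the surfactant gene Sftpc gave 10460 to 20649 in recurrences, 11531 to 28941 in TI-KM primaries, 15504 to 31058 in TI-K primaries and 28262 in the normal lung. The club cell gene Scgb1a1 lay at 6137 to 30039, 1976 to 35424, 7052 to 25725 and 33334 in the same order of groups, and the lung transcription factor Nkx2-1 was dim everywhere, at 6.37 to 111. The normal lung array held a high signal of adipocyte genes: 4 measured markers summed to 75770 there against 118 to 1924 in the 28 tumours. In bulk tissue, fewer cells of a type and less RNA per cell cannot be told apart.

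For technical values, 3 sets of tumour arrays were kept apart, defined from the data and the sample titles and not from any label of a batch. In 10 arrays (TI-KM recurrences 1 to 4 and TI-KM primaries 1 to 6) the 18S ribosomal control signal was above 12000, and their median signal was 122 to 170. A further 5 arrays (TI-K primaries 1 to 5) have title numbers above 6000 and median signals of 103 to 111. The remaining 13 arrays (TI-KM recurrences 5 and 6, TI-KM primaries 7 to 14 and TI-K primaries 6 to 8) had median signals of 69.9 to 102. No TI-K primary was in the high-18S set, and the normal lung had an 18S signal of 12569. Group and set are partly confounded. Values are therefore given by set below for members with an adjusted p below 0.05 between sets, and for the joint Trf and Srprb probe set.

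Lcn2 showed the widest separation between tumours and normal lung of the 10 members. Its signal was 6512 to 22605 (median 19866) in recurrences, 9915 to 23478 (median 18410) in TI-KM primaries and 15508 to 18733 (median 17547) in TI-K primaries, against 229 in the normal lung. On the log2 scale it was 6.06, 6.16 and 6.12 above the normal lung, or 66.9-fold, 71.4-fold and 69.7-fold. All 28 tumours lay above the single normal array, whose own spread is unknown. Of the 8 tested members besides Lcn2, 3 did not overlap the normal lung in recurrences, 2 in TI-KM primaries and 4 in TI-K primaries. With 1 array to clear, that also held for 45.5%, 36.8% and 53.8% of all genes.

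Among the tumours the Lcn2 groups overlapped. The difference was -0.09 ± 0.18 (log2, standard error) between recurrences and TI-KM primaries (adjusted p = 0.853), -0.06 ± 0.20 between recurrences and TI-K primaries (adjusted p = 0.855) and 0.03 ± 0.16 between TI-KM and TI-K primaries (adjusted p = 0.911), by limma with Benjamini-Hochberg adjustment over all 14602 genes. TI-K primaries stayed within a narrow band, while TI-KM primaries and recurrences spread more widely. One recurrence, number 1, had the lowest value of all tumours at 6512, with 17274 as the next of its group. Without it the recurrences lay 0.21 above TI-K primaries (adjusted p = 0.320).

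Of all genes outside the list, 3 followed Lcn2 most closely over the 28 tumours, after the mean of each group within its set was removed: Gm3924 (Pearson r = 0.90), Elovl1 (r = 0.90) and Lbp (r = 0.88). The 28 points share the array scaling, and the r values fell to 0.75, 0.77 and 0.77 over 26 arrays without the 2 whose Lcn2 lay farthest from the median, TI-KM recurrence 1 and TI-KM primary 4. Elovl1, a fatty acid elongase, gave 5307 to 22267 in recurrences, 8736 to 21086 in TI-KM primaries and 15135 to 20970 in TI-K primaries, against 3307 in the normal lung. Lbp, which binds bacterial lipopolysaccharide, gave 837 to 7791 in recurrences, 1728 to 6391 in TI-KM primaries and 3566 to 5033 in TI-K primaries, against 415 in the normal lung.

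Lbp also belongs to a list of 16 acute phase genes, of which 12 were measured. Of these, 3 were called higher in recurrences than in the normal lung (12.5% of all 14602 genes differed in that comparison). In TI-KM primaries 5 of 12 were called higher (14.9% of all genes differed) and in TI-K primaries 4 of 12 (13.5% differed). None was called lower. Saa3 differed by -1.19, -1.91 and -2.30 in the same order of groups (adjusted p = 0.531, 0.251 and 0.166). For Orm1 the differences were -0.59, -1.21 and -1.60 (adjusted p = 0.617, 0.215 and 0.0971). Serpina3n, Nfkbiz and Saa2 were also below the normal lung in each group. Lbp rose by 2.97, 3.12 and 3.35 on the log2 scale in recurrences, TI-KM primaries and TI-K primaries (adjusted p = 0.00325, 0.00101 and 7.00e-04). Lrg1, a secreted glycoprotein, rose by 2.55, 2.60 and 2.49 (adjusted p = 0.00298, 0.00127 and 0.00258), and the transcription factor Cebpd by 1.20, 1.19 and 1.13 (adjusted p = 0.0384, 0.0271 and 0.0446). The median difference over the 12 genes was 0.75, 0.90 and 1.04, against 0.14, 0.10 and 0.00 over all genes. Between recurrences and TI-KM primaries 1 of the 12 was called, with 0.26% of all genes called: Itih4 (log2 difference -1.75 ± 0.28, adjusted p = 0.00478). Between recurrences and TI-K primaries 2 of the 12 were called, a share near the 18.9% of all genes. Itih4 was lower there (-1.47 ± 0.31, adjusted p = 0.00289) and the acute phase glycoprotein Orm1 higher (1.01 ± 0.32, adjusted p = 0.0300). Between TI-KM and TI-K primaries 0 of the 12 were called by limma, and 1, Serpina3n, had an unadjusted p below 0.05 (p = 0.0199).

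Markers of cells that can supply Lcn2 were summed beside it. Neutrophils store Lcn2 in their granules, and 8 measured neutrophil genes summed to 562 to 6469 in recurrences, 688 to 4096 in TI-KM primaries and 700 to 3048 in TI-K primaries, against 6241 in the normal lung. The neutrophil sum was above the normal lung in 1 of 28 tumours, recurrence 2. Gene by gene, none of the 8 was called against the normal lung in any tumour group. Of all genes, 12.5%, 14.9% and 13.5% were called in recurrences, TI-KM primaries and TI-K primaries. The median log2 difference of the 8 was -0.18, -0.45 and -0.62 in that order. S100a8 and S100a9, the most abundant neutrophil transcripts, were at 4235 and 1175 in the normal lung, and their tumour medians were 320 and 99.5 in recurrences, 740 and 144 in TI-KM primaries and 473 and 127 in TI-K primaries. The 12 measured macrophage genes summed to 27984 to 65317 in recurrences, 18605 to 60466 in TI-KM primaries and 37508 to 66355 in TI-K primaries, against 16058 in the normal lung. The sum of 7 alveolar type II genes was 71182 to 142978, 98342 to 153199 and 116485 to 170468 in the 3 tumour groups, against 49604 in the normal lung. Whether any of these cells carried the Lcn2 signal was not tested.

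**Figure D1:**
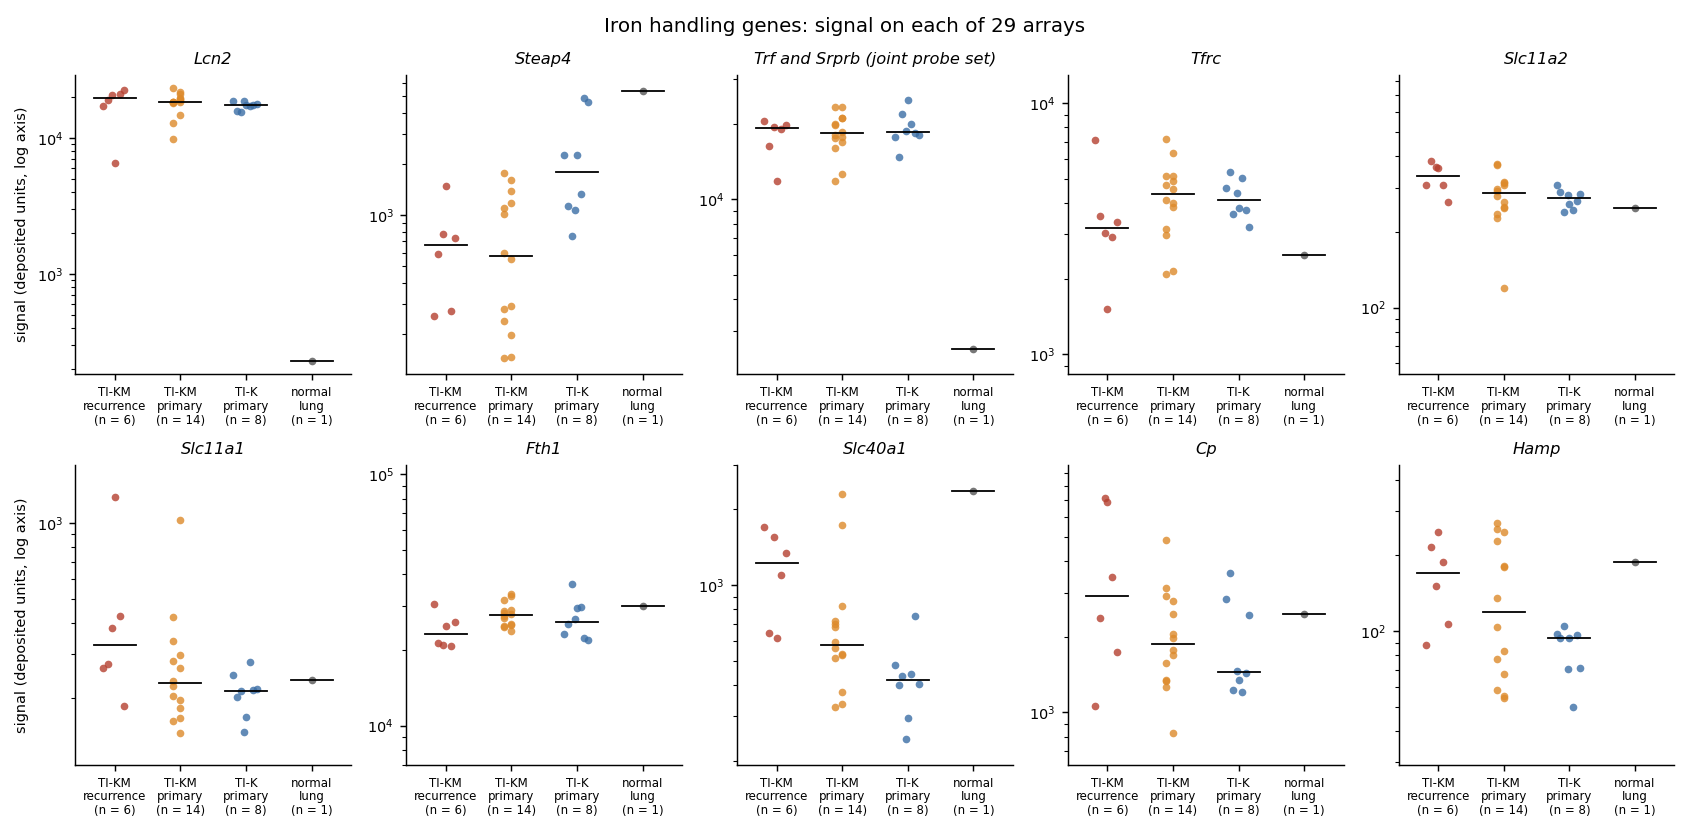
Signal of each member on each array (log axis, deposited units), with recurrences, TI-KM primaries, TI-K primaries and the normal lung from left to right; bars mark group medians. Lcn2 and the joint Trf and Srprb probe set lie above the normal lung in all 28 tumours, and Steap4 and Slc40a1 lie below it in all 28.

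Steap4, a metalloreductase of iron and copper that is also expressed in adipose tissue, had the largest coefficient of variation of the 10 members over the 28 tumours, 100.5%. It lay at 255 to 1473 (median 664) in recurrences, 144 to 1776 (median 573) in TI-KM primaries and 756 to 4899 (median 1788) in TI-K primaries, against 5380 in the normal lung. All 28 tumours were below the normal lung, and TI-KM and TI-K primaries overlapped between 756 and 1776. The differences from the normal lung were -3.19 ± 1.12 in recurrences (adjusted p = 0.0590), -3.28 ± 1.07 in TI-KM primaries (adjusted p = 0.0364) and -1.52 ± 1.10 in TI-K primaries (adjusted p = 0.422). These 3 differences rest on 1 normal array, which also had the adipocyte signal described above. The part of those cells in the result was not tested. The TI-KM and TI-K primaries here are the arrays that led to the choice of Steap4.

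TI-KM primaries averaged 1.75 below TI-K primaries on the log2 scale, a 3.37-fold lower value, which is given with no test because it led to the choice of the gene. Within TI-KM primaries the signals followed the sets of arrays. The 6 high-18S primaries lay at 144, 146, 197, 237, 279 and 290, and the 8 remaining ones at 548, 598, 1016, 1099, 1183, 1377, 1599 and 1776. The 2 sets did not overlap, and the difference was -2.26 ± 0.35 (adjusted p = 1.60e-05). In that contrast 42.6% of all 14602 genes were called and 14.3% did not overlap between the 2 sets. It uses the same TI-KM arrays as the comparison that led to the choice of the gene.

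TI-K primaries had 2261, 2246, 4623, 1133 and 4899 on the 5 high-number arrays and 756, 1329 and 1070 on the 3 remaining ones. The difference between those sets was 1.35 ± 0.47 (adjusted p = 0.0738), with 7.75% of all genes called. It uses the same TI-K arrays as the comparison that led to the choice of the gene. The sum of 8 fibroblast and pericyte genes was 18666 to 28104 on the high-number arrays and 8766 to 11895 on the remaining ones, and 3 of the 8 were called higher. Within TI-KM primaries, where Steap4 was lower on the high-18S arrays, that sum was 10076 to 25829 on them and 6173 to 16031 on the remaining ones. Its part in the Steap4 signal was not tested. On the remaining arrays alone, the 8 TI-KM primaries (548 to 1776) and the 3 TI-K primaries (756 to 1329) overlapped, and the log2 difference was 0.06; with the sets as a block it was -0.28. On the high-18S and high-number arrays, each of which holds primaries of 1 genotype only, genotype and set cannot be told apart.

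Recurrences had Steap4 signals of 1473, 770, 272 and 591 on the high-18S arrays and 736 and 255 on the remaining ones. Against TI-K primaries they were lower by -1.66 ± 0.56 (3.16-fold lower, adjusted p = 0.0374). Every TI-K primary lay above 4 of the 6 recurrences. This comparison uses the same TI-K arrays as the one that led to the choice of the gene. The call did not hold on the remaining arrays alone (-1.20, adjusted p = 0.350) and the sign turned with the sets as a block (0.16, adjusted p = 0.953). Leaving out single arrays gave -1.93 to -1.44, and the call was lost without TI-K primary 1, 2, 3 or 5 or without recurrence 2, 3, 4 or 6 (adjusted p of 0.0553 to 0.0944).

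Against TI-KM primaries, the difference of recurrences in Steap4 was 0.09 ± 0.51 (adjusted p = 0.957), and the 2 sets of arrays gave opposite signs. The difference was 1.57 ± 0.42 on the high-18S arrays (adjusted p = 0.0506) and -1.26 ± 0.51 on the remaining ones (adjusted p = 0.724). Of all genes, 1.58% were called on the high-18S arrays and 0.0479% on the remaining ones. The test of the difference between those differences gave 2.83 ± 0.66 (adjusted p = 0.167), and 0.0137% of all genes were called in it. All of these comparisons use the same TI-KM arrays as the one that led to the choice of the gene. The second Steap4 probe set was dim, at 9.48 to 27.1 in recurrences, 8.83 to 30.1 in TI-KM primaries, 7.98 to 74.6 in TI-K primaries and 98.0 in the normal lung, and did not pass the filter.

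The genes that followed Steap4 most closely within groups and sets were Fndc10 (Pearson r = 0.79 over 28 tumours), Kctd15 (r = 0.74) and Rflnb (r = 0.73). Over 26 arrays, without TI-KM primaries 1 and 4, the values were 0.80, 0.73 and 0.76. Like Steap4, all 3 had a lower median in each tumour group than in the normal lung. Fndc10 had medians of 292, 226 and 207 in recurrences, TI-KM primaries and TI-K primaries, against 1121 in the normal lung.

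**Figure D2:**
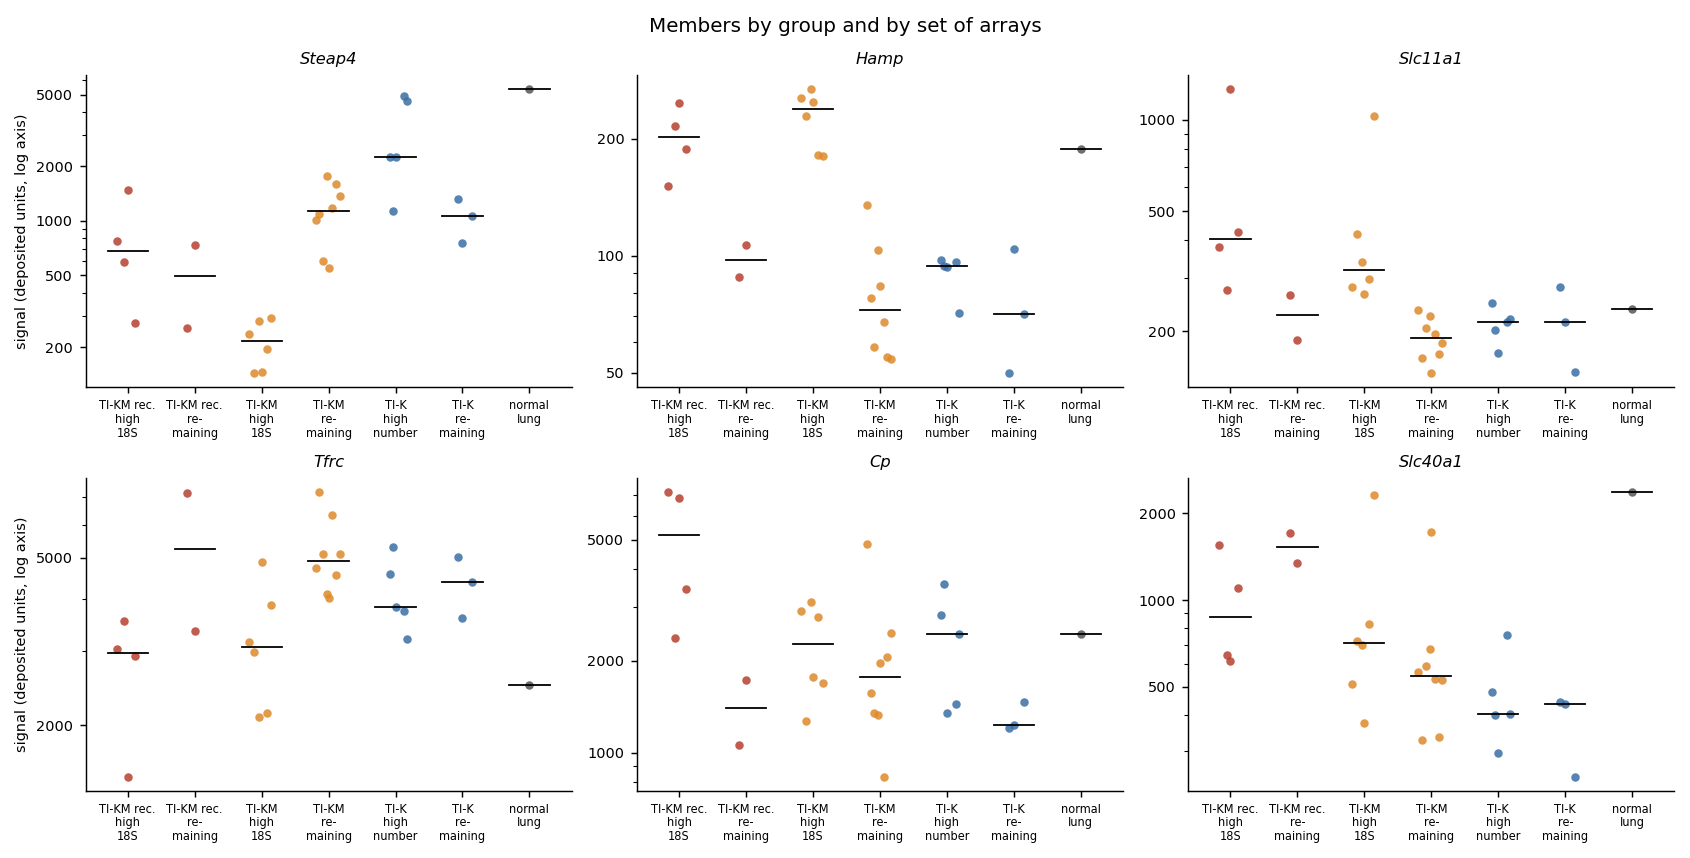
Signal of 6 members (log axis, deposited units) by group and set of arrays: high 18S, high title number, or remaining; each point is 1 array and bars mark medians. Steap4 of TI-KM primaries lies at 144 to 290 on the high-18S arrays and at 548 to 1776 on the remaining ones, and Hamp runs the other way, at 181 to 269 and 54.4 to 135.

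On the uptake side, the probe set annotated jointly to Trf and Srprb gave 11789 to 20417 (median 19222) in recurrences, 11826 to 23362 (median 18297) in TI-KM primaries and 14717 to 24832 (median 18513) in TI-K primaries, against 2541 in the normal lung. All 28 tumours lay above the normal lung, and the tumour groups overlapped throughout. By set, TI-KM primaries gave 11826 to 17749 on the high-18S arrays and 18040 to 23362 on the remaining ones. Recurrences gave 11789 to 19400 and 19721 to 20417 in the same order, so neither group overlapped between its sets. Of all genes, 14.3% did not overlap between the sets of TI-KM primaries, and that share was not computed for recurrences. TI-K primaries gave 14717 to 24832 on the high-number arrays and 18685 to 21903 on the remaining ones. These differences between sets were not tested. In the fit of every probe set the difference from the normal lung was 2.77 ± 0.30, 2.82 ± 0.29 and 2.90 ± 0.30 in the 3 groups (adjusted p = 1.70e-07, 3.85e-08 and 3.92e-08), where 9.34%, 10.3% and 9.06% of 31932 probe sets were called. Which of the 2 genes carries this signal was not tested.

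Tfrc, the receptor for iron-loaded transferrin, gave 1507 to 7147 (median 3192) in recurrences, 2092 to 7160 (median 4338) in TI-KM primaries and 3208 to 5302 (median 4100) in TI-K primaries, against 2485 in the normal lung. The groups overlapped, and 25 of 28 tumours lay above the normal lung. None of its comparisons was called: -0.33 ± 0.24 between recurrences and TI-KM primaries (adjusted p = 0.580), -0.36 ± 0.26 between recurrences and TI-K primaries (adjusted p = 0.330), and -0.03 ± 0.21 between TI-KM and TI-K primaries (adjusted p = 0.943). Against the normal lung the differences were 0.38, 0.71 and 0.74 in recurrences, TI-KM primaries and TI-K primaries (adjusted p = 0.701, 0.402 and 0.400).

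Within TI-KM primaries the brightest Tfrc probe set was lower on the high-18S arrays, at 2092 to 4881 (median 3076), than on the remaining ones, at 4009 to 7160 (median 4927). The difference was -0.73 ± 0.21 (adjusted p = 0.00641), with 42.6% of all genes called. The other 2 gene probe sets of Tfrc were dim, at 175 to 247 and 11.5 to 115 in recurrences. They gave differences of 0.11 and -0.66 between recurrences and TI-K primaries, so that the 3 probe sets did not share a direction there. Within TI-KM primaries these 2 had higher medians on the high-18S arrays, 256 and 64.2, than on the remaining ones, 138 and 43.1, which was not tested.

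Slc11a2, which carries ferrous iron out of endosomes, varied little across the arrays, with a coefficient of variation of 19.1% over the tumours. Its signal was 263 to 382 in recurrences, 120 to 373 in TI-KM primaries and 240 to 306 in TI-K primaries, against 248 in the normal lung. Although 5 of 6 recurrences lay above every TI-K primary, the difference was 0.26 ± 0.17 (adjusted p = 0.274), that between recurrences and TI-KM primaries 0.26 ± 0.15 (adjusted p = 0.504), and that between TI-KM and TI-K primaries 0.00 ± 0.14 (adjusted p = 0.998). Of its 4 probe sets, the dimmest was below the normal lung (263) in 28 of 28 tumours, at 59.1 to 156 in recurrences, 47.6 to 225 in TI-KM primaries and 55.6 to 140 in TI-K primaries, but its adjusted p against the normal lung was 0.121, 0.232 and 0.128.

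Slc11a1, the phagosomal metal pump of macrophages, gave 187 to 1268 (median 327) in recurrences, 146 to 1031 (median 230) in TI-KM primaries and 146 to 280 (median 215) in TI-K primaries, against 237 in the normal lung. Most arrays lay between 146 and 427, and 2 stood apart: recurrence 1 at 1268 and TI-KM primary 5 at 1031. The difference between recurrences and TI-K primaries was 0.80 ± 0.34 (adjusted p = 0.0873) between recurrences and TI-KM primaries 0.52 ± 0.30 (adjusted p = 0.497), and between TI-KM and TI-K primaries 0.28 ± 0.28 (adjusted p = 0.527). Within TI-KM primaries the high-18S arrays (266 to 1031) lay above all the remaining ones (146 to 235), by 0.97 ± 0.27 (adjusted p = 0.00499). In that contrast 42.6% of all genes were called, 30% of all genes being called higher, and 14.3% did not overlap. The macrophage sum was 65317 on recurrence 1, the highest of the recurrences, and 47612 on TI-KM primary 5, within the range of the other TI-KM primaries.

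Fth1, the heavy chain of the iron store ferritin, was bright and even on all arrays. It gave 20768 to 30481 in recurrences, 23709 to 33433 in TI-KM primaries and 21930 to 36539 in TI-K primaries, against 29926 in the normal lung. No comparison was called, with differences of -0.22 ± 0.11 between recurrences and TI-KM primaries (adjusted p = 0.400), -0.16 ± 0.12 between recurrences and TI-K primaries (adjusted p = 0.346) and 0.06 ± 0.10 between TI-KM and TI-K primaries (adjusted p = 0.711). Its second probe set, at 7613 to 16779 over the tumours and 11445 in the normal lung, was not called either.

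Slc40a1, or ferroportin, the only known iron exporter of mammalian cells, had its highest tumour median in recurrences and its lowest in TI-K primaries. Its signal was 613 to 1710 (median 1220) in recurrences, 328 to 2314 (median 577) in TI-KM primaries and 244 to 755 (median 419) in TI-K primaries, against 2364 in the normal lung. Recurrences and TI-K primaries overlapped between 613 and 755, where 2 recurrences and 1 TI-K primary lay, and 4 of 6 recurrences were above every TI-K primary. All 28 tumours were below the normal lung.

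Recurrences were 2.54-fold above TI-K primaries in Slc40a1 (log2 difference 1.35 ± 0.34, adjusted p = 0.00942). Slc40a1 and Steap4 were the 2 of 9 members called in this comparison, in which 18.9% of all genes were called. The Steap4 call uses the TI-K arrays that led to its choice. The second Slc40a1 probe set gave 127 to 262 in recurrences and 50.0 to 141 in TI-K primaries, a difference of 1.06 ± 0.27 (adjusted p = 0.00535 in the fit of every probe set, where 26.9% were called). Leaving out single arrays kept the adjusted p at 0.00789 to 0.0291. The difference was 1.47 (adjusted p = 0.0222) with the 3'/5' ratio of the control probe sets as a covariate. That log2 ratio averaged 1.32 ± 0.45 in recurrences and 2.15 ± 0.41 in TI-K primaries (SD, n = 6 and 8). Cell markers also moved in this comparison: all 3 ciliated cell genes were called higher, with sums of 339 to 7048 in recurrences and 123 to 739 in TI-K primaries. Club cell genes summed to 12621 to 69238 in recurrences and 9122 to 45111 in TI-K primaries, with 1 of 3 called, and erythroid genes to 233 to 663 and 94.5 to 368 in the same order, with 1 of 3 called. Macrophage genes went the other way, with a median log2 difference of -0.31 and 1 of 12 called lower. Of the other lists, 1 of 4 adipocyte, 1 of 4 hepatocyte and 1 of 8 neutrophil genes were called higher. None of the 7 alveolar type II, 8 fibroblast and pericyte or 5 endothelial genes was called. The part of any of these cells in the Slc40a1 difference was not tested. With the sets as a block the difference was 1.48 (adjusted p = 0.239), and on the remaining arrays alone, with 2 recurrences at 1340 and 1710 and 3 TI-K primaries at 435, 442 and 244, it was 2.01 (adjusted p = 0.125).

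The same gene was 0.71 ± 0.31 higher in recurrences than in TI-KM primaries (adjusted p = 0.340) and 0.63 ± 0.28 higher in TI-KM than in TI-K primaries (adjusted p = 0.139), so neither step passed the test. Within TI-KM primaries, numbers 5 and 7 stood out at 2314 and 1728, and the other 12 lay at 328 to 826. Against the normal lung the difference was -2.47 ± 0.67 in TI-K primaries (5.53-fold lower, adjusted p = 0.0117), -1.83 ± 0.66 in TI-KM primaries (adjusted p = 0.0571) and -1.12 ± 0.68 in recurrences (adjusted p = 0.315). Slc40a1 was the 1 of 8 members called in TI-K primaries against the normal lung, where 13.5% of all genes were called. Steap4 was the 1 of 8 called in TI-KM primaries, where 14.9% were, and that call uses the TI-KM values that led to its choice. In TI-KM primaries the Slc40a1 call was gained without primary 5 (adjusted p = 0.0163) or 7 (adjusted p = 0.0300).

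**Figure D3:**
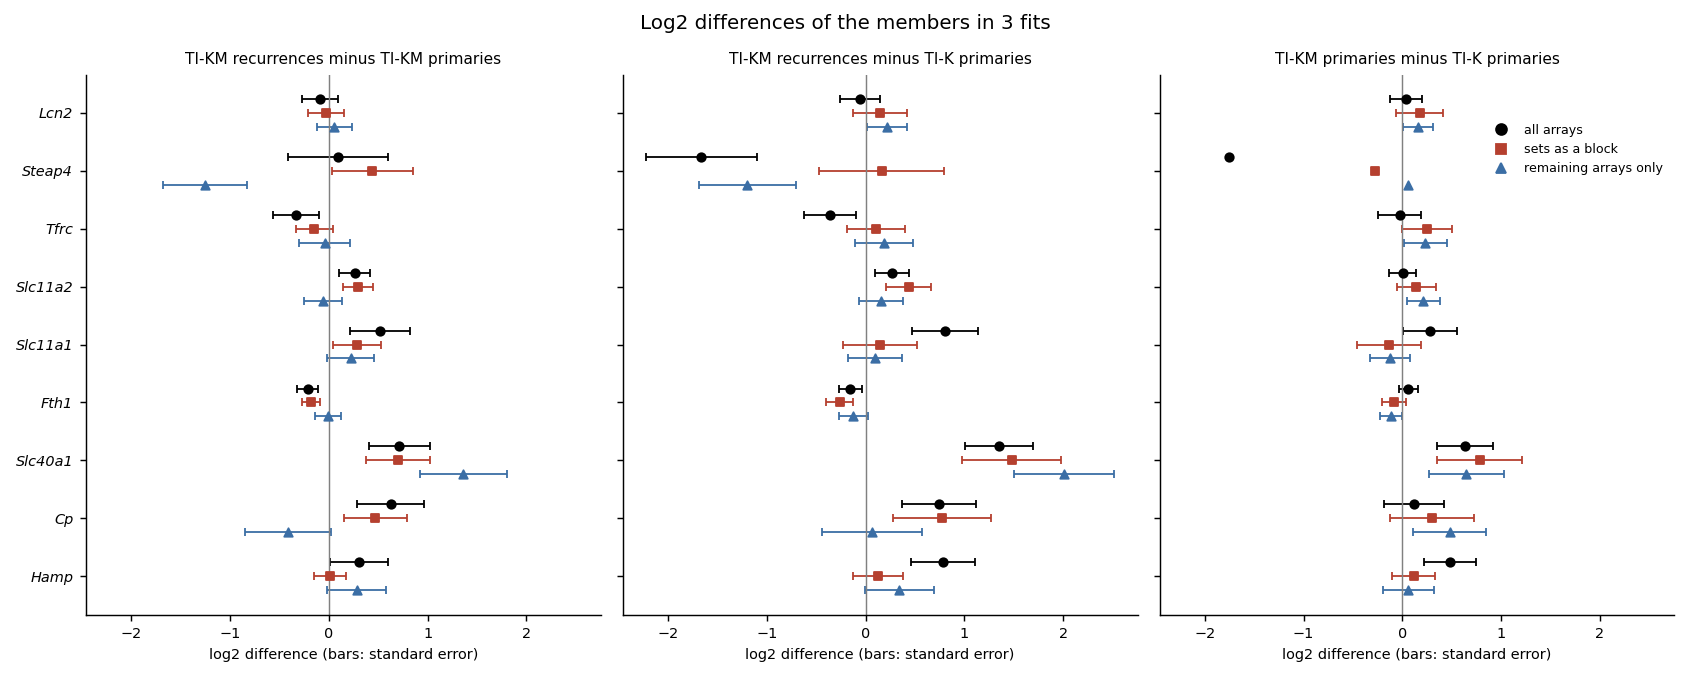
Log2 differences of the 9 tested members in the 3 comparisons between tumour groups, for all arrays, with the sets of arrays as a block, and on the remaining arrays alone; bars are standard errors, and Steap4 between TI-KM and TI-K primaries has none because it was not tested. Slc40a1 keeps its sign in all 3 fits, and Steap4 moves from -1.66 to 0.16 between recurrences and TI-K primaries under the block.

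Cp, the copper ferroxidase that works with ferroportin, was read by 8 probe sets, and 7 passed the filter. The brightest gave 1060 to 7164 (median 2915) in recurrences, 832 to 4845 (median 1870) in TI-KM primaries and 1208 to 3586 (median 1452) in TI-K primaries, against 2460 in the normal lung. Recurrences 1 and 2 were the highest of all arrays at 6891 and 7164, TI-KM primary 8 followed at 4845, and the groups overlapped. The difference between recurrences and TI-K primaries was 0.74 ± 0.37 (adjusted p = 0.152), between recurrences and TI-KM primaries 0.63 ± 0.34 (adjusted p = 0.454), and between TI-KM and TI-K primaries 0.12 ± 0.31 (adjusted p = 0.829).

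The probe sets of Cp, numbered here from 1 to 7 by falling mean signal, differed in their calls. In the fit of every probe set, 3 of the 7 were called higher in recurrences than in TI-K primaries, against 13.6% of all probe sets; the 7 read 1 gene and are not independent. The calls were number 2 by 1.29 ± 0.46 (adjusted p = 0.0382), number 3 by 1.44 ± 0.44 (adjusted p = 0.0162) and number 4 by 1.43 ± 0.47 (adjusted p = 0.0237). The other 4 were higher by 0.50 to 0.74 with adjusted p of 0.132 to 0.258. Signals of number 3 were 348 to 4330 in recurrences and 371 to 974 in TI-K primaries, so that 4 of 6 recurrences lay above every TI-K primary. By set, number 2 gave 2081 to 4666 in the 4 high-18S recurrences and 340 to 987 in the 2 remaining ones. Its TI-K primaries lay at 366 to 1623. All high-18S tumours came from TI-KM animals, and the part of the set in these 3 calls was not tested.

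Against the normal lung the 7 probe sets formed 2 kinds. Numbers 5, 6 and 7 were at 1686, 1392 and 630 in the normal lung and lower in all 28 tumours. In TI-K primaries they differed from the normal lung by -2.18, -2.38 and -2.01 (adjusted p = 0.0575, 0.0252 and 0.0440). The other 4 differed by -0.45 to -1.37 there, with adjusted p of 0.406 to 0.840, and each overlapped the normal lung in at least 1 tumour group. Cp is known to be spliced into a secreted form and a form anchored to the membrane, and which transcript each probe set reads was not analysed here.

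Within recurrences Cp also followed the sets. Its brightest probe set gave 6891, 7164, 3457 and 2373 on the 4 high-18S arrays and 1735 and 1060 on the 2 remaining ones, a difference of 1.71 ± 0.51 (adjusted p = 0.0204, with 18.8% of all genes called). Within TI-KM primaries the high-18S arrays (1265 to 3126) and the remaining ones (832 to 4845) overlapped, with a difference of 0.24 ± 0.32 (adjusted p = 0.567).

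**Figure D4:**
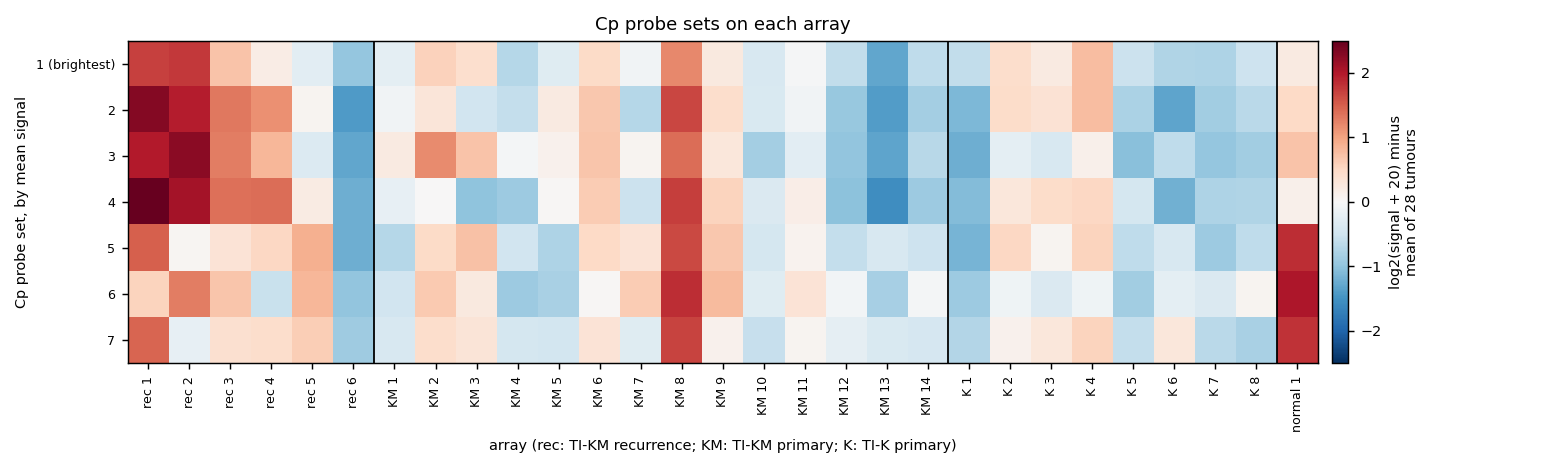
Log2(signal + 20) of the 7 Cp probe sets that passed the filter, each minus its mean over the 28 tumours, on recurrences, TI-KM primaries, TI-K primaries and the normal lung from left to right. Recurrences 1 and 2 are high in the upper 4 probe sets, the normal lung is highest in the lower 3, and TI-KM primary 8 is high in all 7.

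Hamp, or hepcidin, was dim. It gave 88.1 to 247 (median 170) in recurrences, 54.4 to 269 (median 119) in TI-KM primaries and 49.8 to 104 (median 93.8) in TI-K primaries, against 188 in the normal lung. Recurrences were 0.78 ± 0.32 above TI-K primaries (adjusted p = 0.0827), with 5 of 6 above every TI-K primary. TI-KM primaries were 0.48 ± 0.26 above TI-K primaries (adjusted p = 0.236), recurrences 0.30 ± 0.29 above TI-KM primaries (adjusted p = 0.684), and no comparison of this probe set was called. The second Hamp probe set gave 0.98 ± 0.37 between recurrences and TI-K primaries (adjusted p = 0.0460 in the fit of every probe set).

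The levels of Hamp lined up with the sets of arrays. In recurrences they were 247, 151, 188 and 215 on the high-18S arrays and 106 and 88.1 on the remaining ones (difference 0.90 ± 0.28, adjusted p = 0.0255). In TI-KM primaries they were 181 to 269 on the 6 high-18S arrays and 54.4 to 135 on the 8 remaining ones (1.35 ± 0.17, adjusted p = 2.07e-06). Of all genes, 18.8% were called between the sets of recurrences and 42.6% between those of TI-KM primaries. The median signal of all probe sets also differed between these arrays, at 122 to 170 and 73.8 to 102 in TI-KM primaries, so a dim gene and the general level of the array moved together; the part of that level in the result was not tested.

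Against the normal lung, 5 members had no call in any tumour group. The differences in recurrences, TI-KM primaries and TI-K primaries were 0.37, 0.11 and 0.11 for Slc11a2 (adjusted p = 0.533, 0.879 and 0.890) and 0.63, 0.11 and -0.17 for Slc11a1 (adjusted p = 0.600, 0.945 and 0.918). They were -0.33, -0.12 and -0.17 for Fth1 (adjusted p = 0.398, 0.812 and 0.697), 0.29, -0.33 and -0.45 for Cp (adjusted p = 0.847, 0.831 and 0.766) and -0.24, -0.54 and -1.02 for Hamp (adjusted p = 0.857, 0.644 and 0.332).

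Counted by comparison, 0 of 9 members were called between recurrences and TI-KM primaries, where 0.26% of all genes were called, and 2 of 9 had an unadjusted p below 0.05 by limma, against 12.4% of all genes. Between TI-KM and TI-K primaries 0 of 8 were called, against 8.01% of all genes, and 1 of 8 had an unadjusted p below 0.05, against 27.9%. Between recurrences and the normal lung 0 of 8 were called, against 12.5% of all genes, and 1 of 8 had an unadjusted p below 0.05, against 25.9%. Steap4 was left out of the second of these counts and Lcn2 of the third, as values that led to the choice. Among TI-KM primaries 4 of 9 members passed the test of high-18S against remaining arrays, a share close to the 42.6% of all genes. Steap4 and Tfrc were lower, and Slc11a1 and Hamp higher, on the high-18S arrays. The 2 dimmer gene probe sets of Tfrc had higher medians there, and the Steap4 values are among those that led to its choice.

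Of 61 other iron genes, listed by role, 53 were measured. Between recurrences and TI-KM primaries none of the 53 was called by limma, and 7 of 53 had an unadjusted p below 0.05, against 12.4% of all genes. Between recurrences and TI-K primaries 4 of 53 were called, 3 higher and 1 lower, against 18.9% of all genes called and 12.2% called higher. Hmox1, which breaks down heme and frees its iron, rose by 1.43 ± 0.51 (adjusted p = 0.0463), with 345 to 2220 in recurrences, 78.3 to 1464 in TI-KM primaries, 159 to 442 in TI-K primaries and 36.1 in the normal lung. Transferrin receptor 2 (Tfr2), a sensor of iron-loaded transferrin, rose by 0.87 ± 0.29 (adjusted p = 0.0385) and the iron-sulphur cochaperone Hscb by 0.75 ± 0.25 (adjusted p = 0.0346). Urod, an enzyme of heme synthesis, fell by 0.51 (standard error 0.16, adjusted p = 0.0263). The median difference was 0.04 over the 53 genes and 0.11 over all genes.

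Between TI-KM and TI-K primaries 5 of 53 were called higher, near the 5.5% of all genes, and none lower. Fbxl5, which marks the iron regulatory protein IRP2 for degradation when iron is plentiful, rose by 0.81 ± 0.15 (adjusted p = 0.00539), with 4953 to 11221 in TI-KM primaries and 2903 to 6025 in TI-K primaries. Aco1, the iron regulatory protein IRP1, rose by 0.52 ± 0.13 (adjusted p = 0.0184), with 9472 to 19995 in TI-KM primaries and 8984 to 12295 in TI-K primaries. The others were Cpox of heme synthesis (0.93 ± 0.24, adjusted p = 0.0219), Ciapin1 (0.64 ± 0.16, adjusted p = 0.0178) and the scaffold protein Iscu (0.43 ± 0.14, adjusted p = 0.0474), the last pair of iron-sulphur cluster assembly. The median was 0.07 over the 53 genes and 0.08 over all genes.

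With the sets of arrays as a block, and on the remaining arrays alone, 0 of the 53 were called by limma in any of the 3 comparisons. Few of all genes were called either. The block called 0.705% between recurrences and TI-KM primaries and 0.0959% between recurrences and TI-K primaries. Between TI-KM and TI-K primaries it called 0%. On the remaining arrays the shares were 0.0822%, 0.13% and 0% in that order of comparisons. At an unadjusted p below 0.05 the counts under the block were 8 of 53 between recurrences and TI-KM primaries, 4 between recurrences and TI-K primaries and 3 between TI-KM and TI-K primaries, against 15.0%, 11.1% and 4.84% of all genes. On the remaining arrays they were 1, 5 and 8 of 53, against 7.84%, 11.99% and 7.03%. Under the block, which called 0 of all 14602 genes between TI-KM and TI-K primaries, the difference was 0.31 for Fbxl5, 0.35 for Aco1, 0.37 for Cpox, 0.63 for Ciapin1 and 0.39 for Iscu. Between recurrences and TI-K primaries it was 0.07 for Hmox1, -0.17 for Tfr2, -0.11 for Hscb and -0.14 for Urod, so that Tfr2 and Hscb changed sign. Between the high-18S and the remaining TI-KM primaries, 12 of the 53 were higher and 10 lower, against 30% and 12.6% of all genes. The lower ones included 7 of the 12 genes of iron-sulphur cluster assembly, a role picked out after its values were seen.

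**Figure D5:**
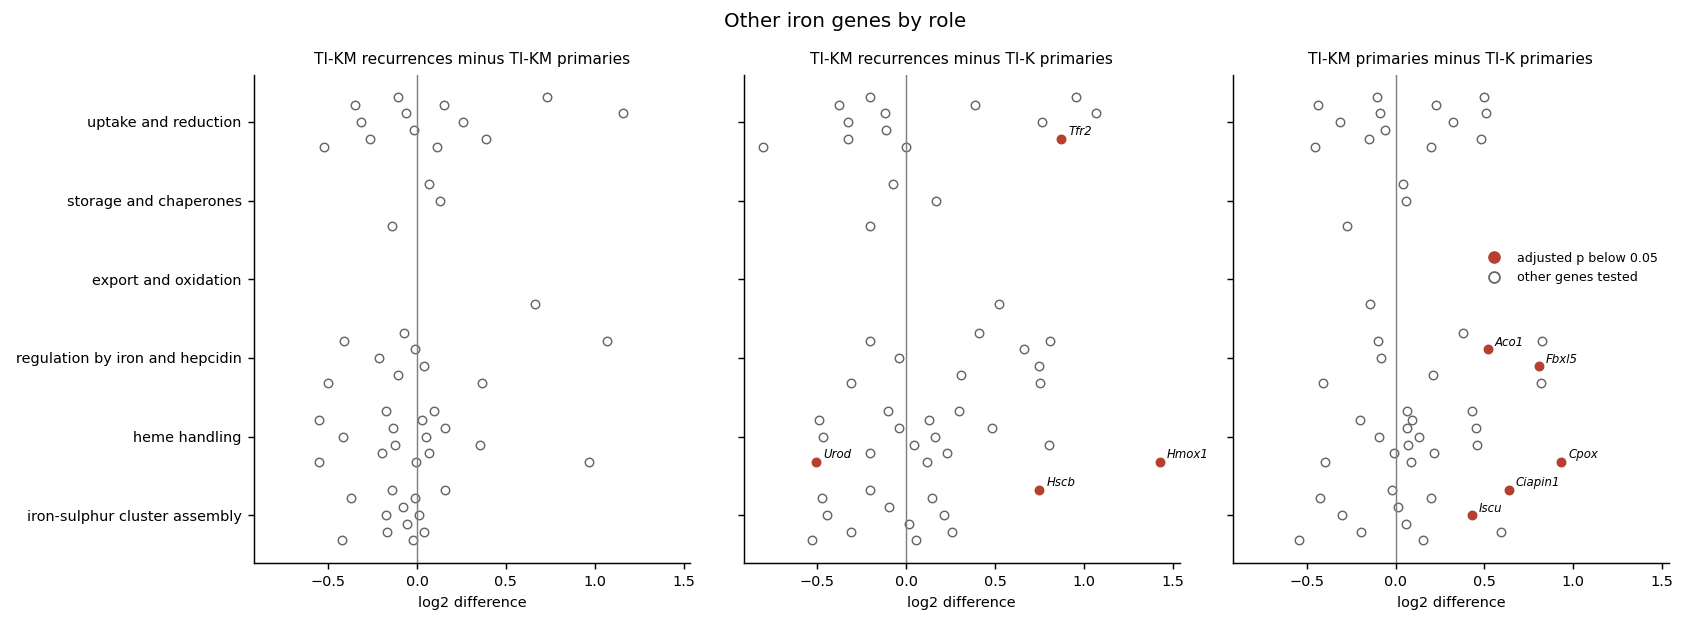
Log2 differences of 53 other iron genes by role in the 3 comparisons between tumour groups; filled points have an adjusted p below 0.05 over all genes tested. No point is filled between recurrences and TI-KM primaries, 4 are between recurrences and TI-K primaries, and 5 are between TI-KM and TI-K primaries.

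Against the normal lung, 3 of the 53 were higher and 10 lower in recurrences, 5 higher and 10 lower in TI-KM primaries, and 2 higher and 11 lower in TI-K primaries. Of all genes, 12.5%, 14.9% and 13.5% were called in these comparisons, and 6.06%, 7.16% and 6.79% were called lower. The genes named next were chosen after their values were seen. Of the 12 measured genes of iron-sulphur cluster assembly, 6 were lower in recurrences, 5 in TI-KM primaries and 6 in TI-K primaries, and Nubp1 was the 1 that was higher in each. Bola3, which helps to deliver clusters in mitochondria, was lower in all 3 (log2 differences -2.83, -2.82 and -2.62). Fech, the last enzyme of heme synthesis, was lower too (log2 differences -2.30, -2.46 and -2.53), and Hmox1 rose by 4.20 in recurrences and 3.23 in TI-KM primaries (adjusted p = 0.00509 and 0.0213). In TI-K primaries Hmox1 was not called, though its signal there also lay above that of the normal lung. The erythroid enzyme Alas2 was at 4678 in the normal lung and 5.59 to 566 in the tumours, and the adipocyte sum was also highest in that array; the part of blood and fat in these differences was not tested.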

How the data were processed

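RNA of 29 lung samples was hybridised to Affymetrix arrays, 1 array a sample, after two-cycle labelling of total RNA, per the labels' protocols. The deposited intensity values are MAS5 signals, per the submitters' processing notes, and their trimmed mean (2% cut at each end) is 500 on each array; nothing else was done to them between arrays as far as the values show. Of 45101 probe sets, 34958 name 1 gene, 932 several and 9211 none, in the platform annotation, and 34754 matched the RefSeq gene table. The series text names a smaller version of the array.

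Log2(signal + 20) was fitted with limma 3.58.1 in R 4.3.3 (4 group means over all 29 arrays, eBayes with a variance trend), after the filter on dim probe sets, with the highest-mean probe set for each of 14602 genes. Benjamini-Hochberg adjustment ran over all genes tested, and adjusted p below 0.05 is a call. A second fit took each of 31932 probe sets on its own. The fit was tested on simulated data. The normal lung is 1 array, assumed to vary like the tumours. The number of arrays limits the precision, and no depth applies.

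Samples were grouped by their source labels. The sets by 18S signal and title number are not in the labels, and p-values between them come from a fit with 1 mean for each group and set. The members, gene lists, sets and alternatives were chosen with earlier results of these data known. The rule named all 10 members; in each comparison between tumours, the 2 iron genes of each role with the smallest p where called; and the 3 genes with the highest residual correlation for Lcn2 and for Steap4. Acute phase genes, and iron genes against the normal lung, are given as counts with a few examples. Alternatives were the offset, the filter, quantile normalization, every probe set, the sets as a block or alone, the shared title number, the 3'/5' ratio and leaving out each array.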

Additional observations from a re-analysis of the deposited data

Results flagged for a closer look

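In recurrences, 1 array stood apart in Lcn2: recurrence 1 had a signal of 6512, with the next at 17274. On the log2(signal + 20) scale the gap was 0.784 of the group's range, past the critical value for 6 samples, and on the signal scale 0.669. The 20 member groups tested were those of TI-K primaries and of recurrences, and TI-KM primaries were not tested. Of the 20, Lcn2 in recurrences was the 1 so marked on the log2 scale, and chance marks about 1 in 20. On the signal scale 4 were, the others being Tfrc (recurrence 6) and Slc11a1 (recurrence 1) in recurrences and Slc40a1 (primary 5) in TI-K primaries. The same array had the highest Slc11a1 signal (1268) and the lowest Tfrc signal (1507) of all arrays, the highest macrophage sum of the recurrences (65317) and the lowest alveolar type II sum of the tumours (71182). Its ciliated (7048), adipocyte (1924) and club cell (69238) sums were the highest of the 28 tumours, whose next values were 3991, 875 and 58679. The part of those values in the low Lcn2 signal was not tested.

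The probe set annotated to both Trf and Srprb lies outside the gene-level comparisons, and its lowest tumour signal, 11789, was above the 2541 of the normal lung. The hepatocyte sum, which counts genes of a tissue known to make transferrin, was 406 to 2818 in recurrences, 315 to 1540 in TI-KM primaries and 316 to 1280 in TI-K primaries, against 4981 in the normal lung; its part in the result was not tested.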

How the results depend on the processing

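Under other settings, 448 recomputed log2 differences kept their direction and their side of the threshold and 38 changed sign; with 1 array left out, 718 kept both and 24 changed sign. For recurrences against TI-K primaries, 4 members were called after quantile normalization (22% of all genes called), and 0 with the sets as a block (0.0959%) or on the remaining arrays alone (0.13%). For TI-K primaries against the normal lung, 2 were called on the remaining (23.8%) or on the high-number arrays alone (33.5%). For TI-KM primaries against the normal lung, 2 were called with an offset of 100 (14.9%) and 3 on the remaining arrays (26.2%). For recurrences against the normal lung, 1 was called with an offset of 100 (12.2%), on the remaining arrays (20.1%), on the high-18S arrays (11.8%), or with the 3'/5' ratio as a covariate (9.84%). With 1 array left out the counts were 1 to 3 for recurrences against TI-K primaries, 1 to 2 for TI-KM primaries and 0 to 1 for recurrences against the normal lung. Slc11a1 (adjusted p = 0.0386 without recurrence 5), Hamp (0.0411 without recurrence 6) and Cp (0.0338 without recurrence 6) were gained against TI-K primaries.

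These log2 differences changed sign, none of them being called after the change. Between TI-KM and TI-K primaries they were Lcn2 after quantile normalization (-0.0105), Slc11a2 with an offset of 5 (-0.00193), Steap4 on the remaining arrays (0.0602), and Tfrc (0.252 and 0.232), Slc11a1 (-0.138 and -0.125) and Fth1 (-0.0840 and -0.118) with the sets as a block and on the remaining arrays. Between recurrences and TI-KM primaries they were Lcn2 after quantile normalization (0.0361) and on the remaining arrays (0.0550), Steap4 on the remaining arrays (-1.26), with title number 76 averaged (-0.0108) and with the 3'/5' ratio (-0.38), Slc11a2 on the remaining arrays (-0.0579) and with the 3'/5' ratio (-0.0476), Hamp on the high-18S arrays (-0.17) and Cp on the remaining arrays (-0.41). Between recurrences and TI-K primaries they were Lcn2 after quantile normalization (0.0256), under the block (0.15), on the remaining arrays (0.21) and without recurrence 1 and TI-KM primary 5 (0.21), Steap4 under the block (0.16), Tfrc under the block (0.11) and on the remaining arrays (0.19), and, with the 3'/5' ratio, Slc11a2 (-0.0471) and Fth1 (0.0323). Against the normal lung they were, in recurrences, Slc11a2 with the 3'/5' ratio (-0.0923), Slc11a1 on the remaining arrays (-0.0824), Hamp on the high-18S arrays (0.0619) and Cp on the remaining arrays (-0.85). In TI-KM primaries they were Slc11a2 on the high-18S arrays (-0.0588) and with the 3'/5' ratio (-0.0447), Slc11a1 on the remaining arrays (-0.30), Fth1 after quantile normalization (0.0597) and Hamp on the high-18S arrays (0.23). In TI-K primaries they were Slc11a2 with the 3'/5' ratio (-0.0452) and Fth1 on the remaining arrays (0.0329). The causes were not tested.

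Leaving out 1 array turned the sign of Tfrc (-0.0918 to 0.0440) and Slc11a2 (-0.0330 to 0.0816) between TI-KM and TI-K primaries, Lcn2 (-0.18 to 0.18) and Steap4 (-0.18 to 0.31) between recurrences and TI-KM primaries, Lcn2 (-0.15 to 0.21) between recurrences and TI-K primaries, and Slc11a1 (-0.0368 to 0.168) between TI-KM primaries and the normal lung. The settings that leave out 2 arrays, use the high-number arrays alone or compare sets were added after seeing the data. No paired analysis was possible because the replicate numbers follow the order of the samples and pair nothing. Dim members such as Hamp lie close to background, and with 1 normal array its spread cannot be measured.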
